A study of Mus musculus with 7 samples.

Results

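The 8 genes described here were Spp1, Apoe, Lpl, Lgals3, Trem2, Gpnmb, Cd9 and Fabp5, a set often read together as the lipid-handling program of macrophages. They were selected on measured values of these libraries, namely the Spp1 level of macrophages in BPI and BP, and taken by gene symbol out of the 32285 genes counted, and all 8 were present. The set was chosen with results of these data known, Spp1 because its macrophage level was lower in BPI than in BP; for that reason every difference between BPI and BP in macrophages, and any difference of BP or BPI from IgG in the Spp1 level of macrophages, is given below as a description, without a test. The genes were followed in macrophage-like, monocyte-like, microglia-like and tumour-like cells of whole brain tumours, measured by droplet single-cell RNA sequencing (10x Genomics 3′ kit), which counts each captured transcript by a unique molecular identifier (UMI).

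All 7 libraries came from C57BL/6 mice of 7 to 10 weeks, listed as wild type, that carried tumours of the mouse glioma line NSCG-mCherry, whose stated alterations are EGFRvIII and loss of Arf/Ink4a, with tumours taken at about day 14 and at least 2 mice pooled per library. UT (1 library) received no treatment. IgG (2 libraries) received the isotype control IgG2b at 10 mg/kg, BP (2 libraries) received anti-PD-L1 at 10 mg/kg together with the VEGF antibody B20 at 5 mg/kg, and BPI (1 library) received the same antibodies with the PI3K inhibitor IPI-145 at 10 mg/kg by daily gavage. CD40 (1 library) received 2 doses of 100 µg of an agonist anti-CD40 antibody, and whether a dendritic cell vaccine was added is not settled by the labels. By the labels the tumour is a single implanted line, so it models the response of host cells to 1 tumour genotype. The tumour-like cells differed between libraries in clusters and tumour markers, as given below. A pooled library is 1 replicate, so p-values measure only the spread between libraries, and mouse-to-mouse variation could not be seen.

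Osteopontin, the product of Spp1, is a secreted phosphoprotein that binds integrins and CD44. Triggering receptor expressed on myeloid cells 2 (Trem2) binds lipids and apolipoproteins and signals through its adaptor Tyrobp, and in microglia of injured or diseased brain its signalling accompanies a shift from homeostatic genes such as P2ry12 to Apoe, Lpl, Spp1 and Gpnmb. In tumours, macrophages rich in osteopontin, glycoprotein NMB and lipid-handling proteins are known as lipid-associated or Spp1+ macrophages.

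Libraries held 68997476 to 186793886 UMIs in total, and 5373 to 9650 cells of each were kept. Pairs of libraries shared 0 to 27 cell barcodes. BP 1 and UT stood apart from the other libraries: UT listed 713553 barcodes against 1487060 to 2310016 elsewhere, and the myeloid cells of both sat largely in clusters of their own. The UT barcodes are largely other sequences than those listed by the other 6 libraries, although the labels give 1 kit version for all 7, and the part of this in the UT levels and shares below was not tested. By consecutive library number, IgG 1, BP 2 and BPI formed one set and CD40 and IgG 2 another, while BP 1 and UT each stood alone; this is a numbering and not a stated batch. Within-set values are therefore printed beside the pooled comparisons, and each compares 1 library with 1 library. Macrophage-like cells numbered 321 in UT, 47 and 48 in IgG, 1354 and 149 in BP, 232 in BPI and 133 in CD40, and microglia-like cells numbered 53, 134 and 699, 217 and 158, 186, and 851 in the same order. Monocyte-like cells numbered 15 to 401 and tumour-like cells 2513 to 6230 per library. Levels are the UMIs of the gene over all UMIs of that class in that library, on the usual CPM scale, and intervals are exact 95% intervals that cover counting error only.

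The sequences just upstream of 3 members are shown because the results below turn on them: Apoe is the member whose level over libraries and classes together was most like that of Spp1, and Gpnmb had both BP libraries and BPI below both IgG libraries in macrophages. Each is the 250 bases before the RefSeq start farthest upstream, 5′ to 3′ on the gene's own strand, on GRCm38.p6. The windows lie at chr5:104434861-104435110 (plus strand) for Spp1, chr7:19699189-19699438 (minus strand) for Apoe and chr6:49036268-49036517 (plus strand) for Gpnmb. Capitals mark matches to a RUNX motif (AACCACA) or a PU.1/ETS motif (GAGGAAGT) on either strand.
Spp1: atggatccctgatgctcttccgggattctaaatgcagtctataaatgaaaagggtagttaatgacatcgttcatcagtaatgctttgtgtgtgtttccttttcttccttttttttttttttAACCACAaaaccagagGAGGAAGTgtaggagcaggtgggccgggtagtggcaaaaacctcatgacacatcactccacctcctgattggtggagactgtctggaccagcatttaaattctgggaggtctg
Apoe: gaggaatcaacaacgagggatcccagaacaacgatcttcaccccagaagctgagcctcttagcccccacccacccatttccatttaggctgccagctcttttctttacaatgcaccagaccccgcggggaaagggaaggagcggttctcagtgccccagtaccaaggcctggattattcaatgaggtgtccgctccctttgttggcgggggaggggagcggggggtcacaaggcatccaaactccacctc
Gpnmb: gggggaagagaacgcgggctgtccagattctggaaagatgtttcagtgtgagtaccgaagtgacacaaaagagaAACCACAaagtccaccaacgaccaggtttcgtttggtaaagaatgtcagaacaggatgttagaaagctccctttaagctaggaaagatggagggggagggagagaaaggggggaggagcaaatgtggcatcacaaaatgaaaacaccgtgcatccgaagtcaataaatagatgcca
The Spp1 window held AACCACA with its last base 123 bases and GAGGAAGT at 113 to 106 bases before the start, and the Gpnmb window held AACCACA at 176 to 170 bases before it. The Apoe window held neither, and none of the 3 held TGACTCA (AP-1), CACGTG or CATGTG (MITF/TFE E-boxes), also searched on both strands. Among 32851 RefSeq promoter windows of the same length, 4.40% held AACCACA, 2.44% GAGGAAGT, 4.46% TGACTCA, 6.02% CACGTG and 12.3% CATGTG. These matches describe letters only.

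In the GENCODE annotation of GRCm38 all 8 members are protein-coding genes: Spp1 at chr5:104435118-104441050, Apoe at chr7:19696109-19699188, Lpl at chr8:68880491-68907448, Lgals3 at chr14:47367751-47386160, Trem2 at chr17:48346401-48354147, Gpnmb at chr6:49036546-49070929, Cd9 at chr6:125460266-125494791 and Fabp5 at chr3:10012548-10016607. Cd9 overlaps Gm28809 and Gm26728 on the opposite strand, both counted, and whether this overlap alters the Cd9 counts was not tested.

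The cell classes were examined first, because the set carries the name of macrophages. Spp1 had a median over the 7 libraries of 2040 CPM in macrophage-like cells (266 to 3759), 734 CPM in microglia-like cells (171 to 4055), 62.9 CPM in monocyte-like cells (20.2 to 498) and 8.86 CPM in tumour-like cells (5.59 to 15.4). The ranges of the macrophage-like, microglia-like and monocyte-like cells overlapped their neighbours in that order, and the tumour-like range lay below all of them. Spp1 was higher in macrophage-like than in monocyte-like cells of all 7 libraries, and it was higher in microglia-like than in macrophage-like cells of UT, IgG 2 and CD40 alone.

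**Figure D1:**
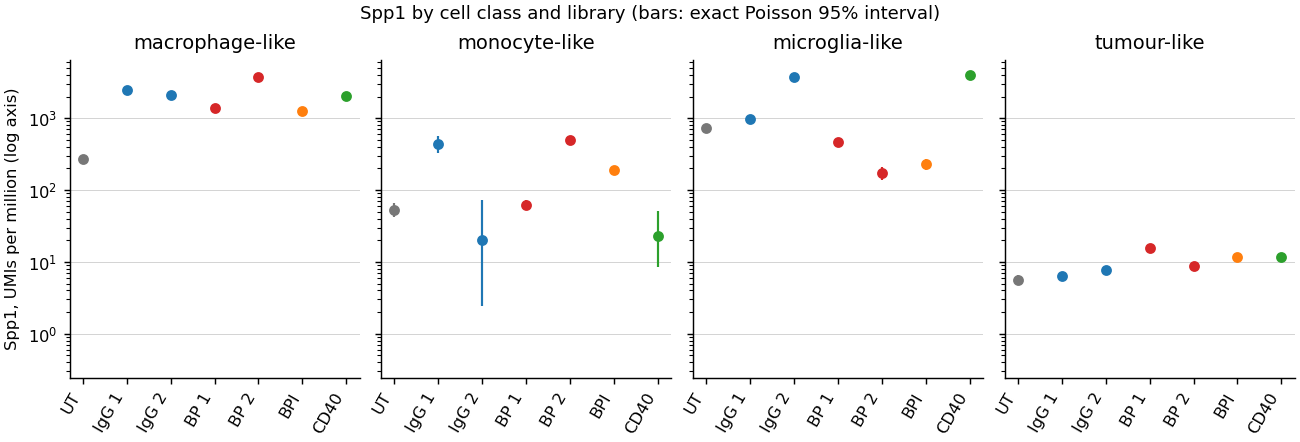
Spp1 in 4 cell classes (panels) of each library (horizontal axis), as CPM on a log axis with exact Poisson 95% intervals as bars. The microglia-like points of IgG 2 and CD40, 3791 and 4055 CPM, stand far above those of BP 2 and BPI, 171 and 229 CPM.

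Among the other secreted members, Apoe, the main lipid carrier of the brain, had a median of 12605 CPM in macrophage-like cells (8402 to 34124), 4702 CPM in microglia-like cells (1816 to 16035), 1481 CPM in monocyte-like cells (816 to 3464) and 231 CPM in tumour-like cells (119 to 271). Lgals3, which encodes the glycan-binding galectin-3, was shared by macrophage-like and monocyte-like cells (medians 2400 and 1915 CPM, with overlapping ranges) and was lower in microglia-like cells (165 CPM). Lpl, the enzyme that releases fatty acids from lipoproteins, had medians of 73.6 CPM in macrophage-like, 78.0 CPM in microglia-like and 26.4 CPM in monocyte-like cells, and these 3 ranges overlapped.

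Of the surface members, Trem2 was higher in microglia-like cells (median 1160 CPM, 763 to 1747) than in macrophage-like cells (465 CPM, 282 to 1042), and it was higher in the microglia-like cells of all 7 libraries. Cd9, a tetraspanin, followed the same order, with medians of 954 and 282 CPM. Gpnmb, a transmembrane glycoprotein of phagocytes, was mainly a macrophage gene, with medians of 147 CPM in macrophage-like cells, 40.5 CPM in microglia-like cells and 5.63 CPM in monocyte-like cells. Fabp5, an intracellular fatty acid carrier, had medians of 1031 CPM in macrophage-like, 156 CPM in microglia-like and 141 CPM in tumour-like cells.

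The source of the UMIs went partly against the name of the set. Tumour-like cells, which made up 46.8% to 83.1% of the cells, held 41.6% to 89.5% of all Cd9 UMIs and 38.8% to 87.7% of all Fabp5 UMIs of a library. For Spp1 the main source changed between libraries: macrophage-like cells held 79.9% of the Spp1 UMIs of BP 2, 62.2% of BP 1, 56.3% of BPI, 44.7% of IgG 1 and 39.6% of UT, whereas microglia-like cells held 86.3% of those of IgG 2 and 84.2% of those of CD40. Most Trem2 UMIs came from microglia-like cells in the IgG, BP 2, BPI and CD40 libraries (54.4% to 87.7%), and most Gpnmb UMIs of BP 2 and BPI came from tumour-like cells (57.1% and 71.3%) despite the low level there. Cell numbers and levels per cell both enter these shares. Clusters left without a name held 1.9% to 31.1% of the cells of a library, most in UT, where 1505 cells sat in cluster 6, with 8 of 12 tumour markers raised, so the UT shares of tumour-like cells leave out those cells. Cluster 22, with 4 of 12 tumour markers raised and shallow cells, was likewise left out, with 1155 cells of IgG 1, 777 of BP 2 and 481 of BPI. Of the myeloid clusters, m3 (240 cells, 101 of them in UT, 10 of 10 microglia markers raised) and m17 (58 cells, 9 of 10) were left without a name, and Spp1 and Trem2 are among the 10 leading genes of both, so the levels and shares of microglia-like cells leave them out.

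Across 27 combinations of library and class with at least 20 cells, the 5 genes whose log2(CPM + 1) followed that of Spp1 most closely among 6972 genes were Dhrs3 (Pearson's r 0.94), Isyna1 (0.94), Plau (0.93), Apoe (0.93) and Fmn1 (0.91). Apoe thus ranked 4 and Trem2 ranked 21 (0.88), while Lpl ranked 172, Gpnmb 250, Lgals3 499, Fabp5 1253 and Cd9 1466. Within macrophage-like cells Spp1 was highest in BP 2 and Apoe in IgG 2. The points share libraries and depth, classes set much of the spread, and these values are descriptions without a test.

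In macrophage-like cells, the comparison of BP with IgG addressed what blockade of VEGF and PD-L1 did to these genes. The clusters that made up the class differed between libraries: cluster m11, with all 10 macrophage markers raised, held 74.5% and 81.2% of the macrophage-like cells in IgG 1 and 2 and 92.5% in CD40, but 33.6% in BP 2, 15.9% in BPI, 0.62% in UT and 0% in BP 1. Cluster m1, whose leading genes were Cxcl2, the macrophage gene Ms4a7, Il1b, Ccl12 and the monocyte gene Ly6c2, had 8 of 10 macrophage and 6 of 9 monocyte markers raised and held 63.1% in BP 2 and 78.9% in BPI, clusters m15 and m16, led by Arg1, Chil3 and Ccl8, held 51.4% and 47.6% in BP 1, and cluster m0 held 91.0% in UT. The 9 measured monocyte markers summed to 1562 and 141 CPM in the macrophage-like cells of IgG, 4328 and 2309 CPM in BP, 4328 in BPI, 4437 CPM in UT and 194 CPM in CD40, with at most 2 of them at 0 in a library, and their part in the results on macrophage-like cells was not tested. The 10 microglia markers summed to 1203 and 2258 CPM there in IgG, 465 and 911 CPM in BP and 937 in BPI, with 3 to 7 of them at 20 CPM or more in a library, against 4544 to 13306 CPM in microglia-like cells. Endothelial markers (7) summed to 30.3 and 21.5 CPM in the macrophage-like cells of IgG, 507 and 107 CPM in BP, 149 in BPI and 50.8 in CD40, and T cell markers (8) to 53.5 and 17.9, 114 and 130, 143 and 53.5 CPM in the same order, with up to 4 and 7 of them at 0 in a library. Their part in the results was not tested either. Clusters were formed without the 8 genes but from other genes of the same cells, so a level inside a cluster is a description.

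Spp1 in macrophage-like cells was 2483 and 2077 CPM in IgG, 1402 and 3759 CPM in BP, 1277 in BPI, 2040 in CD40 and 266 in UT. BP 1 lay below both IgG libraries and BP 2 above both, so that the groups overlapped. On the log2 scale the fitted difference between BP and IgG came to 0.28 ± 0.64 (SE, 2 libraries each) in edgeR, and without BP 2 to -0.82. Within the set, BP 2 was 1.51-fold above IgG 1. These BP levels are among the values that chose the gene, so they are a description and no test of Spp1 is read here.

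The lower Spp1 of BPI, which chose the gene, was mainly a difference from BP 2. BPI was 2.94-fold below BP 2 and 1.10-fold below BP 1, and the 2 BP libraries differed from each other by 2.68-fold. The fitted difference of BPI from BP was -0.78 on the log2 scale, and without BP 2 it was 0.33. The fit scales libraries by TMM factors and the CPM levels do not, so against BP 1 alone the sign depends on the scaling and no direction is read from it. Split by cluster, the same UMIs gave 6617 CPM in BP 2 and 2807 in BPI for m11, and 1838 and 976 CPM for m1. The monocyte-like cluster m4 had 618 and 213 CPM, and the microglia-like cluster m6 had the opposite order, 59.7 and 230 CPM. These values describe the difference that chose the gene and lend it no support. The m11 cells of IgG 1, 35 in number, had 2616 CPM.

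**Figure D2:**
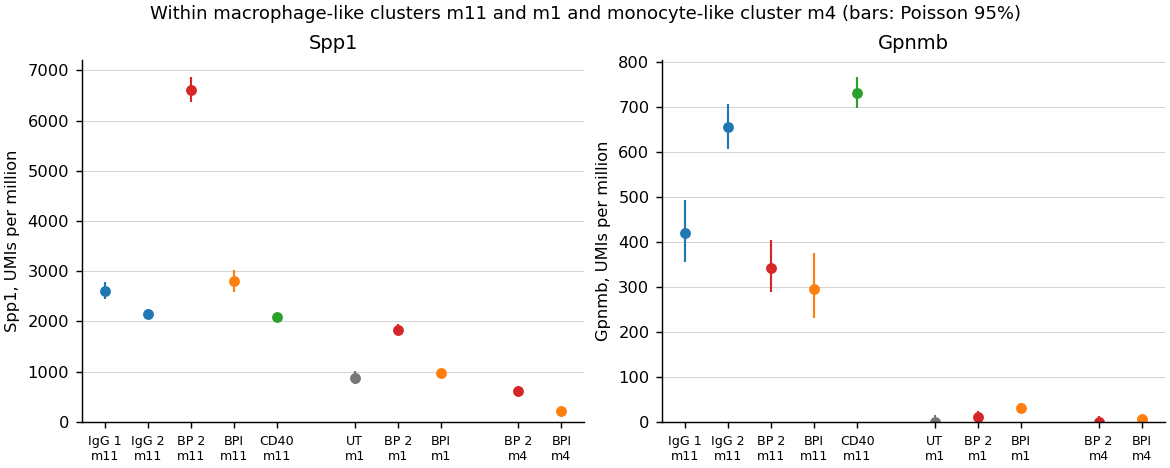
Spp1 (left) and Gpnmb (right) within single clusters shared by several libraries, as CPM with exact Poisson 95% intervals as bars; the second line of each label gives the cluster. BP 2 has the highest Spp1 drawn in m11, m1 and m4, and its Gpnmb in m11, 343 CPM, lies near that of BPI, 296 CPM.

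Gpnmb was 351 and 613 CPM in the macrophage-like cells of IgG, 147 and 147 CPM in BP, 77.9 in BPI, 705 in CD40 and 120 in UT. Both BP libraries and BPI lay below both IgG libraries. The fitted differences from IgG were -1.68 ± 0.47 for BP (SE; edgeR adjusted p = 0.281) and -2.28 ± 0.63 for BPI (edgeR adjusted p = 0.265) on the log2 scale, and neither passed the threshold of 0.05. DESeq2 called both (adjusted p = 0.0331 and 0.0126), and so did edgeR without BP 2 (0.0122 and 0.00579). In any fit without 1 BP library, BP is 1 library and the spread between libraries comes from IgG alone and is assumed for the rest. Within the set, BP 2 was 2.39-fold (1.89 to 3.01) and BPI 4.51-fold (3.47 to 5.89) below IgG 1.

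The clusters differed more in Gpnmb than the libraries did inside m11. There, Gpnmb was 421 CPM in IgG 1, 656 CPM in IgG 2, 343 CPM in BP 2, 296 in BPI and 732 in CD40. BP 2 there did not differ from IgG 1 beyond counting error (1.23-fold below, 0.969 to 1.55), and BPI was 1.42-fold below it (1.06 to 1.92). Cluster m1, which held most macrophage-like cells of BP 2 and BPI, had only 10.7 and 30.0 CPM. Few cells carried the gene: 1 cell held 36.4% of the Gpnmb UMIs of IgG 1 (231 CPM without it), 42.3% of those of BPI (45.4 CPM without it) and 62.9% of those of UT (44.9 CPM without it).

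The lipid members Apoe, Lpl and Trem2 also had both BP libraries below both IgG libraries. Apoe was 12739 and 34124 CPM in IgG, 9758 and 12605 CPM in BP, 8402 in BPI, 26763 in CD40 and 9891 in UT, with a difference of -0.999 ± 0.70 between BP and IgG (SE; edgeR adjusted p = 0.839). IgG 1 and BP 2, of 1 set, did not differ beyond counting error (ratio 0.990, 0.959 to 1.02), and IgG 2 stood 2.68-fold above IgG 1. Trem2 was 601 and 1042 CPM in IgG, 298 and 465 CPM in BP, 332 in BPI, 635 in CD40 and 282 in UT, a difference of -1.03 ± 0.53 between BP and IgG (SE; edgeR adjusted p = 0.687). Within the set, BP 2 was 1.29-fold below IgG 1 (1.11 to 1.51). In m11, Trem2 was 646 and 1104 CPM in IgG, 616 CPM in BP 2, 828 in BPI and 652 in CD40.

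Lpl was 88.4 and 150 CPM in IgG, 6.03 and 73.6 CPM in BP, 20.9 in BPI, 135.98 in CD40 and 11.9 in UT. BP 1 and UT were the lowest, on 87 and 56 UMIs. The difference between BP and IgG was -1.58 ± 0.99 (SE; edgeR adjusted p = 0.786), and without BP 2 it was -4.45 (edgeR adjusted p = 1.52e-05). For BPI against IgG it was -2.18 ± 1.34 (SE; edgeR adjusted p = 0.745), and edgeR called it without BP 1 (-2.15, adjusted p = 0.00670) and without BP 2 (-2.20, adjusted p = 0.00703). Inside m11, Lpl was 89.1 CPM in IgG 1, 111 CPM in BP 2 and 21.8 CPM in BPI.

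Lgals3, Fabp5 and Cd9 gave no common pattern. Lgals3 was 2400 and 1388 CPM in IgG, 2490 and 2955 CPM in BP, 2302 in BPI, 2134 in CD40 and 2451 in UT, and it was the only member with both BP libraries above both IgG libraries. Fabp5 was highest in BP 1 (2112 CPM) and lowest in BPI (493 CPM), with 1031 and 1432 CPM in IgG and 815 CPM in BP 2. Its difference between BP and IgG was 0.23 ± 0.54 (SE; edgeR adjusted p = 0.972), and without BP 1 it was -0.36. Within the set, BP 2 was 1.27-fold below IgG 1 (1.12 to 1.42). Cd9 was 282 and 435 CPM in IgG, 93.0 and 351 CPM in BP, 161 in BPI and 522 in CD40, a difference of -0.58 ± 0.68 (SE; edgeR adjusted p = 0.925) that was 0.20 without BP 1 and -2.07 (edgeR adjusted p = 0.00481) without BP 2. Within the set, Cd9 in BP 2 was 1.25-fold above IgG 1 (1.01 to 1.55).

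For BP against IgG in macrophage-like cells edgeR called 0 of 8 members (Spp1 is counted here and for BPI, and not read as a test), beside 0 of 10108 genes tested (0%; 878 genes and 1 member, Gpnmb, at an unadjusted p under 0.05, and 108 genes and 1 member with DESeq2). For BPI against IgG it called 0 of 8 members beside 4 of 10108 genes (0.0396%; 920 genes and 1 member unadjusted, 122 and 1 with DESeq2), and for CD40 against IgG 0 of 8 beside 0 of 10108 (0%; 118 genes and 0 members unadjusted, 2 and 0 with DESeq2). Both BP libraries lay below both IgG libraries for 4 members, beside 20.1% of all genes tested, and above both for 1 member, beside 14.9%. Leaving out BP 2, edgeR called 5 members as lower in BP (Apoe, Lpl, Trem2, Gpnmb and Cd9) beside 1067 genes in all, and in that fit BP is BP 1 alone, which had 0% of its macrophage-like cells in m11.

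**Figure D3:**
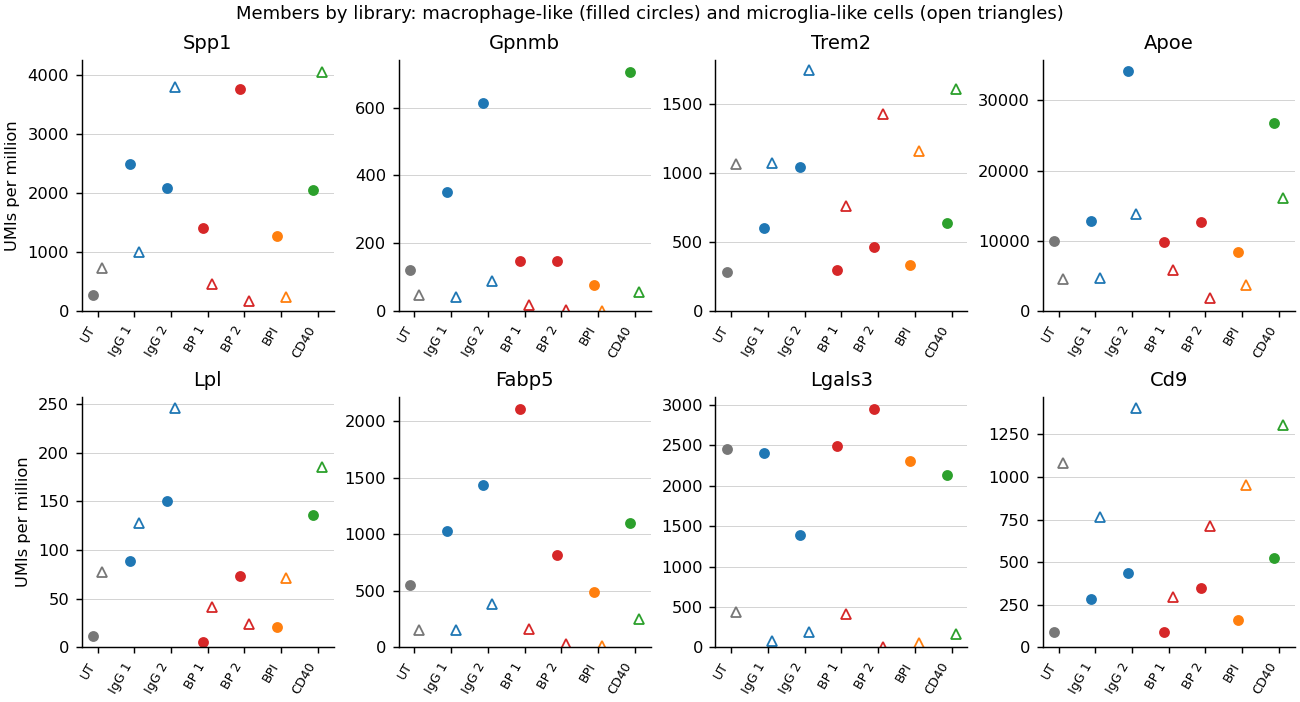
CPM of each member (panels) in macrophage-like cells (filled circles) and microglia-like cells (open triangles) of each library (horizontal axis), on linear axes that start at 0. In macrophage-like cells Gpnmb is lowest in BPI (77.9 CPM), and in microglia-like cells each member except Lgals3 (highest in UT) is highest in IgG 2 or CD40.

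CD40 was set beside IgG 2, the library of its own set. Spp1 in macrophage-like cells was 2040 and 2077 CPM (ratio 0.982, 0.935 to 1.03), Gpnmb 705 and 613 CPM (1.15-fold, 1.05 to 1.26) and Lpl 135.98 and 150 CPM (ratio 0.905, 0.751 to 1.09). Trem2 was 1.64-fold lower in CD40 (1.52 to 1.77) and Lgals3 1.54-fold higher (1.45 to 1.63). The fitted differences of CD40 from IgG were -0.12 ± 0.79 for Spp1 and 0.59 ± 0.54 for Gpnmb (SE; edgeR adjusted p = 1 for both).

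Within a library, Spp1 was concentrated in few macrophage-like cells. The 10% of cells with the most Spp1 held 87.8% of the Spp1 UMIs in UT, 42.7% and 44.2% in IgG, 80.6% and 68.5% in BP, 66.9% in BPI and 53.5% in CD40. With each cell thinned to 1000 UMIs, Spp1 was detected in 8.1% of the macrophage-like cells of UT, 46.8% and 58.3% of IgG, 30.1% and 49.0% of BP, 32.8% of BPI and 51.9% of CD40. Tumour-like cells, the class with the lowest level, gave 0.84%, 0.52% and 0.96%, 1.94% and 0.66%, 1.11% and 1.36% in the same order, at median depths of 5336 to 20810.5 UMIs. T-like cells gave 10.1% in UT, above its macrophage-like share, 5.8% in BP 1 and at most 3.1% elsewhere (0 of 39 cells in IgG 1, exact 95% binomial interval up to 9.03%); whether T-like cells transcribe Spp1 was not tested, so their shares are not read as a background. Without thinning, shares in macrophage-like cells were 34.0% to 87.5%, at median depths of 5123 to 19553 UMIs per cell.

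Thinned macrophage-like cells with Spp1 carried Lgals3, Trem2, Gpnmb and Fabp5 more often than those without in every library, by margins that differed. Apoe went the other way in UT, Cd9 in CD40, and Lpl in UT and IgG 1. In BPI, Apoe was found in 94.7% of 76 cells with Spp1 and 59.6% of 156 cells without, Trem2 in 36.8% and 14.1%, and Cd9 in 25% and 7.1%. In BP 1, Fabp5 was found in 75.4% of 407 cells with Spp1 and 51.0% of 947 without, while Apoe was found in 87.7% and 82.3%. In UT, Apoe was found in 76.9% of 26 cells with Spp1 and 80.7% of 295 without. Cells of a library are not replicates, so these shares carry no test.

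In monocyte-like cells, the blood-derived precursors of macrophages, IgG 2 had 15 cells, under the 20 set for a fit, so values only are given. Spp1 was 435 and 20.2 CPM in IgG, 62.9 and 498 CPM in BP, 190 in BPI, 23.2 in CD40 and 53.5 in UT, where IgG 2 and CD40 rest on 2 and 6 UMIs. The libraries with much Spp1 (IgG 1, BP 2 and BPI) were those of 1 set and those in which cluster m4 held most monocyte-like cells (63.0%, 78.8% and 87.2%). Lgals3 was 833 to 2113 CPM and Apoe 816 to 3464 CPM, Trem2 stayed at 44.3 to 101 CPM, and Gpnmb was at 0 UMIs in BP 2 and CD40 and highest in IgG 1 (90.2 CPM), where 1 cell held 10 of 11 UMIs.

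Microglia, the resident phagocytes of the brain, had Spp1 levels that spread 23.7-fold over the libraries, against 24.6-fold in monocyte-like and 14.1-fold in macrophage-like cells. It was 990 and 3791 CPM in IgG, 460 and 171 CPM in BP, 229 in BPI, 4055 in CD40 and 734 in UT. Both BP libraries and BPI lay below both IgG libraries. The fitted difference from IgG was -2.92 ± 0.88 for BP (SE; edgeR adjusted p = 0.982, unadjusted p = 0.0148) and -3.23 ± 1.202 for BPI (edgeR adjusted p = 1, unadjusted p = 0.0342) on the log2 scale. DESeq2 called both (adjusted p = 0.00521 and 0.0306). Within the set, BP 2 was 5.78-fold (4.61 to 7.33) and BPI 4.31-fold (3.59 to 5.22) below IgG 1, and 1 cell held 57 of the 85 Spp1 UMIs of BP 2. The microglia markers of BP 1 summed to 4544 CPM, against 9365 and 11465 CPM in IgG, 13306 CPM in BP 2 and 10586 in BPI, and endothelial markers (7, up to 3 of them at 0) to 252 and 66.4 CPM in BP, 42.0 and 55.8 CPM in IgG, 36.6 in BPI and 75.7 in CD40; the part of both in the BP results on microglia-like cells was not tested. Without BP 1 the fitted difference of Spp1 between BP and IgG was -3.82 (edgeR adjusted p = 0.253).

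Lpl and Gpnmb also had both BP libraries and BPI below both IgG libraries in microglia-like cells. Lpl was 127 and 246 CPM in IgG, 41.9 and 24.2 CPM in BP, 71.5 in BPI, 185 in CD40 and 78.0 in UT, a difference of -2.44 ± 0.48 between BP and IgG (SE; edgeR adjusted p = 0.982, DESeq2 adjusted p = 0.0170). Within the set, Lpl in BP 2 was 5.27-fold below IgG 1 (2.87 to 10.6). Gpnmb was 40.5 and 88.3 CPM in IgG, 17.2 and 2.01 CPM in BP, 0 UMIs in BPI and 55.2 CPM in CD40, a difference of -2.41 ± 0.70 between BP and IgG (SE; edgeR adjusted p = 0.982). With a floor of 3 UMIs for BPI (4.99 CPM), IgG 1 was at least 8.12-fold higher. Single cells carried much of this: without the 1 cell with most Gpnmb, IgG 1 had 7.50 CPM, IgG 2 36.3 CPM and CD40 39.4 CPM, and BP 1, at 14.1 CPM, was no longer below IgG 1.

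The remaining members were less uniform in microglia-like cells. Apoe was 4702 and 13813 CPM in IgG, 5796 and 1816 CPM in BP, 3675 in BPI, 16035 in CD40 and 4548 in UT, and BP 1 lay between the IgG libraries. Within the set, BP 2 was 2.59-fold below IgG 1 (2.40 to 2.79). Trem2 was 1075 and 1747 CPM in IgG, 763 and 1432 CPM in BP, 1160 in BPI and 1611 in CD40, so the receptor spread 2.29-fold over the 7 libraries where Spp1 spread 23.7-fold. Cd9 was 767 and 1405 CPM in IgG against 297 and 713 CPM in BP (-1.11 ± 0.61, SE; edgeR adjusted p = 1.0), and BP 2 did not differ from IgG 1 beyond counting error (ratio 0.930, 0.810 to 1.07). Fabp5 in BPI was 15.0 CPM on 9 UMIs, against 156 and 384 CPM in IgG and 160 and 34.2 CPM in BP (BPI against IgG -4.02 ± 1.23, SE; edgeR adjusted p = 1, DESeq2 adjusted p = 0.0238). Free RNA was estimated at 38.7% of that BPI level and at 45.8% of the Lgals3 level of BP 2 (6.04 CPM on 3 UMIs).

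edgeR called 0 of 8 members for BP against IgG in microglia-like cells, beside 0 of 12076 genes (0%; 571 genes and 3 members at an unadjusted p under 0.05, 39 and 2 with DESeq2). For BPI against IgG it called 0 of 8 beside 0 of 12076 (0%; 463 and 3 unadjusted, 22 and 2 with DESeq2). Against IgG, CD40 had 0 of 8 members called beside 0 genes (0%; 43 and 0 unadjusted, 0 and 0 with DESeq2), and BPI against BP had 0 of 8 beside 0 (0%; 389 and 0 unadjusted, 2 and 0 with DESeq2). Both BP libraries lay below both IgG libraries for 4 members (Spp1, Lpl, Gpnmb and Cd9), beside 17.6% of all genes tested, and above both for 0 members, beside 14.6%. Without BP 2, when BP is BP 1 alone, with 98.6% of the class in cluster m5, and the spread comes from the IgG pair alone, edgeR called 5 members beside 864 genes: Spp1 (-2.36, adjusted p = 0.0273), Lpl (-2.16, 0.00402), Gpnmb (-1.95, 0.0178) and Cd9 (-1.84, 0.0118) as lower and Lgals3 (1.59, 0.0171) as higher in BP.

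**Figure D4:**
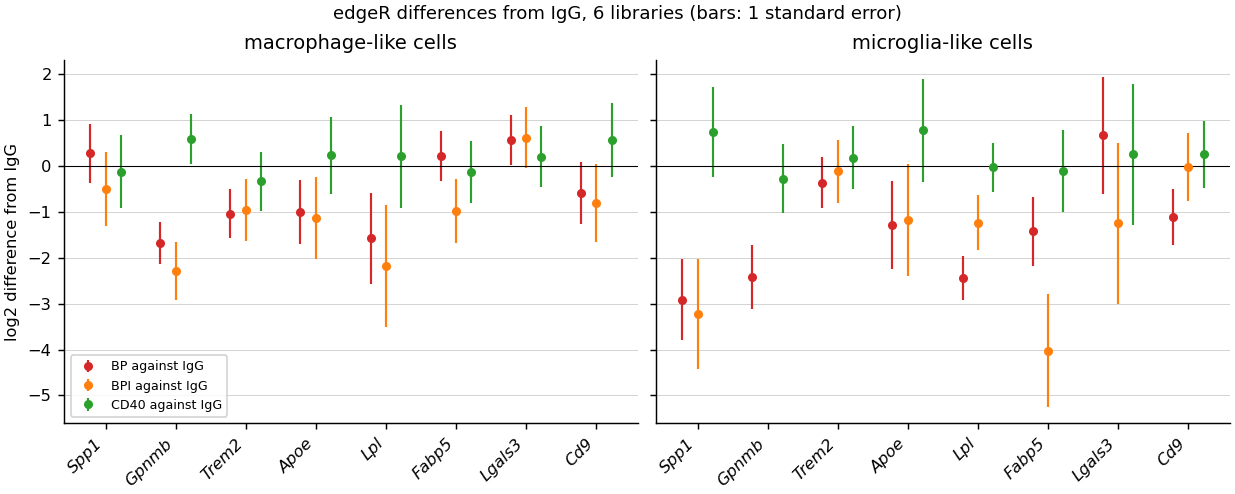
Fitted log2 differences from IgG for BP, BPI and CD40 in macrophage-like cells (left) and microglia-like cells (right), from edgeR on 6 libraries, with 1 standard error as bars. Gpnmb of BPI in microglia-like cells, with 0 UMIs, is not drawn, and no difference drawn passed an adjusted p of 0.05.

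The microglia-like clusters differed in Spp1, and the libraries differed in the clusters they held. A class level is made up of the levels of its clusters, so these are not separate observations. The part of the clusters in the low Spp1 of BP and BPI was not tested. Cluster m10 (509 cells) had 6287 CPM of Spp1 and 507 CPM of P2ry12, a homeostatic microglia gene, and cluster m13 (37 cells) had 9662 and 245 CPM. Clusters m12 and m14 had 45.4 and 22.6 CPM of Spp1 and 2209 and 2237 CPM of P2ry12, and m6 lay between them with 133 and 1384 CPM. Cluster m9 had 4268 and 482 CPM. Cluster m5 was low in P2ry12 (317 CPM), and its Spp1, 520 CPM, lay above m6, m12 and m14 and below m9, m10 and m13. Of the 249 cells of m5, 214 came from BP 1, so its level is largely that of BP 1. Trem2 varied little by comparison, from 788 CPM in m5 to 1965 CPM in m13. Apoe followed Spp1, with 25963 CPM in m10 and 26515 CPM in m13 against 1838 CPM in m12 and 1185 CPM in m14.

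**Figure D5:**
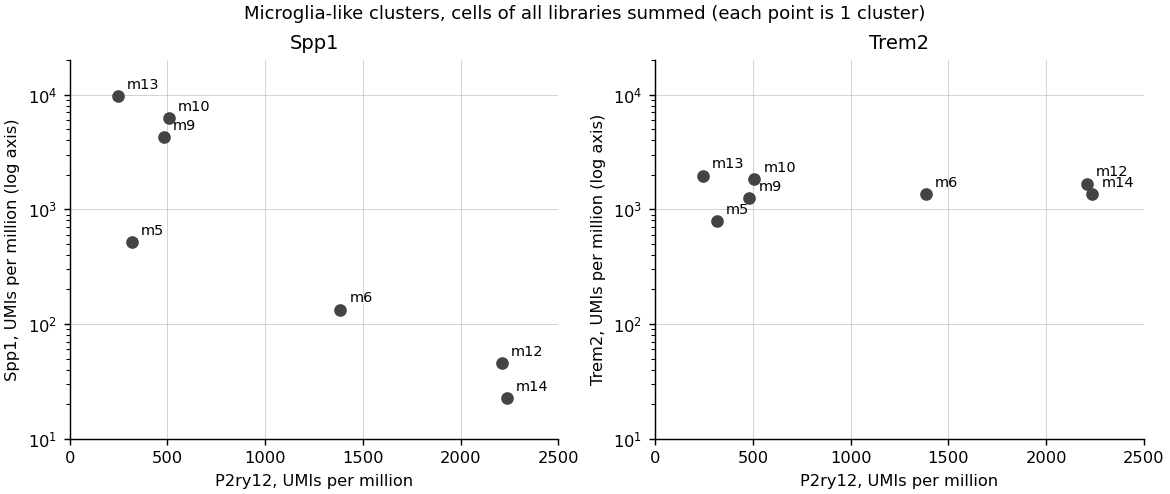
Spp1 (left) and Trem2 (right) against P2ry12 in the 7 microglia-like clusters, as CPM over the cells of all libraries, with the vertical axes on a log scale. Spp1 spans from 22.6 CPM in m14 to 9662 CPM in m13, and Trem2 from 788 to 1965 CPM.

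Cluster m10 held 12.7% and 25.8% of the microglia-like cells of IgG 1 and 2, 34.8% of CD40 and 17.0% of UT, but 0% and 2.53% of BP 1 and 2 and 1.61% of BPI. In BP 1, 98.6% of the class sat in m5, which held 58.5% of UT and at most 0.54% of any other library. In m5, 10 of 10 microglia and 9 of 10 macrophage markers were raised, and its 10 leading genes, among them C1qc, Cd74, H2-Ab1 and Ccl24, held 0 of the microglia markers. C1qa, C1qb and C1qc were left out when leading markers were counted for naming, a choice made after the data were seen; with them counted, m5, m9, m10 and m13 have 3 macrophage markers each among their 10 leading genes against 0 or 1 microglia markers, and would have no name. The levels of the microglia-like class therefore rest on that choice, and the values by cluster number do not. Cluster m6 held 60.4% of IgG 1, 77.8% of BP 2 and 95.2% of BPI, and within it Spp1 was 18.7 CPM in IgG 1 (5 UMIs), 262 CPM in IgG 2, 59.7 CPM in BP 2 and 230 in BPI. Apoe in m6 was 1435, 4860, 1745 and 3726 CPM in the same order, so that for both genes BP 2 and BPI lay between the IgG libraries in this cluster of low Spp1. In m10, Spp1 was 6534 CPM in CD40 and 6388 CPM in IgG 2 (ratio 1.02, 1.004 to 1.041). The macrophage markers summed to 11292 to 23283 CPM in the microglia-like cells, with 0 to 3 of the 10 at 0 (the list holds C1qa, C1qb and C1qc, which microglia also express), and monocyte markers to 4.80 to 293 CPM, highest in BPI (293), UT (235) and BP 1 (198); their part in the result was not tested.

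Microglia-like cells with Spp1 carried Apoe more often than those without in every library except BP 1. Each of the other members was more frequent in them in IgG 2 and CD40, but not in every library. In IgG 2, 143 thinned cells with Spp1 had Apoe in 93.0%, Lpl in 35.0%, Fabp5 in 30.1% and Lgals3 in 21.0%, whereas 556 cells without it had them in 42.4%, 3.2%, 2.5% and 0.7%. In CD40 the same shares were 96.4%, 23.2%, 21.4% and 18.6% of 220 cells against 51.2%, 2.2%, 3.3% and 1.4% of 631. Trem2 was found in 83.2% and 76.6% of the same IgG 2 cells. In BP 1 the pattern was absent for Apoe, which was found in 72.7% of 33 cells with Spp1 and 82.1% of 184 without, and for Cd9 (24.2% and 28.8%). In BPI, Trem2 was found in 42.9% of 14 cells with Spp1 and 70.3% of 172 without. In IgG 1, Lgals3 was found in 0% of 17 cells with Spp1 and 3.4% of 117 without, but Apoe in 70.6% and 35.9% and Lpl in 17.6% and 4.3%. In UT, Lpl was found in 0% of 10 cells with Spp1 and 4.7% of 43 without, but Lgals3 in 40% and 2.3%.

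In tumour-like cells the free RNA estimate differed widely between members. It was set from 3 genes, C1qa, C1qb and C1qc, whose UMIs there were all taken as free RNA. The estimate was 85.2% to 191% of the Trem2 level and 38.7% to 100% of the Lgals3 level, and no level of these is read as expression. Trem2 is high in the same myeloid classes as these 3 genes, so its share follows in part from how the estimate was made. Spp1 was 6.45 and 7.65 CPM in IgG, 15.4 and 8.86 CPM in BP, 11.8 in BPI and 11.7 in CD40, with free RNA estimated at 12.1% (BPI) to 65.5% (BP 1) of it. Gpnmb was 1.0 and 1.67 CPM in IgG, 2.09 and 3.68 CPM in BP, 5.75 in BPI and 3.18 in CD40, with free RNA at 50% and 5.92% in IgG, 36.5% and 2.45% in BP and 1.51% in BPI. In UT, Spp1 was 5.59 CPM and Gpnmb 0.77 CPM, both below the IgG libraries. Apoe was 171 and 119 CPM in IgG and 271 and 231 CPM in BP (0.76 ± 0.30, SE; edgeR adjusted p = 1.0), with free RNA at 5.02%, 14.0%, 22.1% and 4.87%. It was 249 CPM in BPI, 161 in CD40 and 268 in UT, so that the untreated library lay between the BP libraries. Within the set, Apoe in BP 2 was 1.35-fold above IgG 1 (1.31 to 1.38). Cd9 was 133 to 346 CPM and Fabp5 89.1 to 291 CPM, both with free RNA of at most 6.17%.

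edgeR called 0 of 8 members in each of the 4 contrasts of tumour-like cells, beside 0 of 20240 genes (0% each; with IgG as reference 392 genes in BP, 198 in BPI and 17 in CD40, and 29 genes between BPI and BP, at an unadjusted p under 0.05, and 62, 6, 0 and 0 with DESeq2). Of the members, 2 had an unadjusted edgeR p under 0.05 for BPI against IgG, beside 0.978% of all genes, and 0 in the other contrasts. DESeq2 called 0 members. Both BP libraries lay above both IgG libraries for 4 members (Spp1, Apoe, Gpnmb and Lgals3, the last not read as expression), beside 9.47% of all genes, and below both for 0 members, beside 14%. Tumour-like cells also sat in different clusters by library: cluster 5 held 81.2% of BP 1 and at most 0.19% of IgG 1, IgG 2, BP 2, BPI or CD40. Clusters 8, 9 and 16 held 42.6%, 8.55% and 46.2% of IgG 1 and 28.4%, 28.8% and 38.4% of BP 2, but at most 0.13% each of IgG 2. The 10 macrophage markers had the same order in tumour-like cells: they summed to 52.4 and 14.7 CPM in IgG and 71.8 and 57.1 CPM in BP, with 48.8 in BPI, 19.4 in CD40 and none at 0. Monocyte markers (77.4 and 89.8 CPM in IgG, 223 and 74.4 CPM in BP) and microglia markers (126 and 237, 230 and 113 CPM) overlapped. The 12 tumour markers summed to 566 and 1330 CPM in IgG, 1217 and 521 CPM in BP, 480 in BPI, 1269 in CD40 and 842 in UT. Of these 12, 4 were at 20 CPM or more in IgG 1, BP 2 and BPI, against 9 in UT and 10 in IgG 2, BP 1 and CD40. The part of these clusters and markers in the result was not tested.

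Genes that act with the members were taken from 9 lists, and edgeR called 0 genes of any list in the macrophage-like, microglia-like or tumour-like cells, in any contrast; the named genes are the largest fitted differences of a list among well-measured genes. For BP against IgG in macrophage-like cells, the median over all genes was 0.01. Of the TREM2 signalling genes 3 of 7 had positive differences (median -0.07, Syk 0.94 ± 0.42, SE; edgeR adjusted p = 0.587), and of the osteopontin receptors 3 of 6 (median 0.11, Cd44 1.07 ± 0.45, SE; edgeR adjusted p = 0.544). All 4 MITF and TFE genes, transcription factors of lysosome genes, had positive differences (median 1.04), as did 9 of 13 lysosome genes (median 0.24), 6 of 8 other genes of disease-associated microglia (median 0.93) and 10 of 15 genes of cholesterol and lipid handling (median 0.18). The apolipoprotein E receptors had 2 of 3 (0.55), the LPL partners 1 of 2 (0.16) and the tetraspanins 3 of 7 (-0.11).

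Several of these differences rested on BP 1. Tfec of the MITF family was 192 CPM in BP 1, 18.9 CPM in BP 2 and 4.66 and 12.5 CPM in IgG, and the chemokine gene Ccl6 was 1118, 116, 79.1 and 68.8 CPM in the same order. Atp6v0d2, a subunit of the lysosomal proton pump, was 241, 42.8, 41.9 and 59.9 CPM. Nr1h3, which encodes the sterol-sensing receptor LXR alpha, did not overlap between IgG and BP or BPI: 103 and 78.6 CPM in BP, 116 in BPI and 148 CPM in UT against 23.3 and 12.5 CPM in IgG and 22 CPM in CD40. Its differences were 2.46 ± 0.45 for BP (SE; edgeR adjusted p = 0.187) and 3.14 ± 0.50 for BPI (edgeR adjusted p = 0.114).

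For BPI against IgG in macrophage-like cells (median over all genes -0.07), 6 of 13 lysosome genes had positive differences (median -0.02), with Atp6v0d2 at 1 UMI in BPI (0.80 CPM), and 6 of 15 cholesterol and lipid genes (median -0.22). In microglia-like cells, 1 of 8 other disease-associated genes was positive for BPI (median -1.32, against -0.05 over all genes) and 2 of 8 for BP (median -0.26). For CD40 7 of 8 were (median 0.59) and 13 of 13 lysosome genes (median 0.34, against 0.00 over all genes). The CD40 values pool IgG 1 and IgG 2. The standard deviation over genes of the log2 difference was 0.38 between CD40 and IgG 2 and 0.88 between IgG 1 and IgG 2. The lists were not compared with IgG 2 alone, so these signs are not read as an effect of CD40. The TREM2 signalling genes in microglia-like cells had medians of 0.33 for BP, -0.19 for BPI and 0.05 for CD40. In tumour-like cells for BP against IgG, 13 of 13 lysosome genes (median 0.71) and 8 of 8 other disease-associated genes (median 1.93) were positive, against a median of 0.0018 over all genes. The macrophage markers given above were also higher in both BP libraries there. Free RNA was estimated at 3.07% and 1.81% of the UMIs of tumour-like cells in BP and 2.05% and 0.91% in IgG. That estimate rests on C1qa, C1qb and C1qc, which are on the macrophage list, so the estimate and the marker sums are not separate measures. The part of either in the result was not tested.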

How the data were processed

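The deposited files hold raw UMI counts per gene and barcode for all barcodes of 7 libraries, which the authors made with Cell Ranger on mm10: version 7.0.1 per the submitters' processing notes and version 4 per the file headers. Kept barcodes had at least 1000 UMIs, 500 genes and a mitochondrial share up to 15%. Doublets were called and taken out at 0.8% per 1000 cells (Scrublet in scanpy 1.11.5, 4.50% to 8.44% of cells). Cells were clustered without the 8 genes (2000 variable genes, 30 components, 15 neighbours, Leiden resolution 1), and myeloid cells again. A cluster was named from at least 3 raised markers, unless its 10 leading genes held more markers of another class, C1qa, C1qb and C1qc not counted. Clusters shallow for their libraries and with no own marker among the leading genes, such as m3 and 22, also stayed without a name. So did myeloid clusters with at least 50% of the tumour markers raised, such as m17. UMIs were summed per class and library and tested with edgeR 4.0.16 (quasi-likelihood, TMM, filterByExpr, Benjamini-Hochberg over all genes tested, threshold 0.05) in R 4.3.3, in classes with at least 20 cells in each of 6 libraries; UT was described and entered no fit. The SE of an edgeR difference was worked back from the test, as the absolute log2 difference over the square root of its quasi-likelihood F statistic. For BPI and CD40, with 1 library each, the spread of IgG and BP was assumed. With a BP or IgG library left out, that of the 1 pair remaining was assumed. On simulated counts for BP against IgG, with 200 genes changed 4-fold, the test recovered 60.5% in macrophage-like cells (10108 genes), 57.5% in microglia-like cells (12076 genes) and 42.5% in tumour-like cells (20240 genes). The changed genes were drawn from those above the median level. Their counts had the spread fitted as a trend over all genes and no differences between library sets. These percentages therefore need not hold for the members.

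Alternatives were DESeq2 1.42.0, no filter on low counts, each replicate left out, a replicate block, free RNA subtracted, no doublet removal, at least 2000 UMIs per cell, libraries thinned to the lowest total, and monocyte-like and macrophage-like cells merged. The crossed block and leaving out single cells were added after seeing the data. The 8 genes and the lists were chosen with earlier results of these data known. The cluster naming details, the sub-clustering of myeloid cells and the motifs were set after the data or sequences were seen, and the free RNA estimate (from barcodes of 10 to 100 UMIs) was revised 2 times after its values were seen. All 8 genes are named. From each list at most 2 genes are named, those with the largest fitted difference in a contrast among genes with an average log2 CPM of at least 5; Tfec, Ccl6, Atp6v0d2 and Nr1h3 are also given by library. Promoters came from RefSeq (GRCm38.p6) and matched 6 of the 8 genes.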

Additional observations from a re-analysis of the deposited data

Results flagged for a closer look

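For 3 members the BP and IgG libraries were ordered one way in a myeloid class and the opposite way in tumour-like cells, in every library. The share of all genes with such opposite orders was not counted, so this is not read as a result about the members. The difference between classes was not tested. No main fit of these differences passed an adjusted p of 0.05 (edgeR quasi-likelihood test). DESeq2 called Gpnmb in macrophage-like cells and Spp1 in microglia-like cells. Some edgeR fits without BP 2, when BP is 1 library, also passed it, as given above. For Apoe in macrophage-like cells the order rests on 12739 CPM in IgG 1 against 12605 CPM in BP 2, which is within counting error. For Gpnmb in microglia-like cells it rests on single cells: without the cell with most Gpnmb, BP 1 had 14.1 CPM and IgG 1 had 7.50 CPM. Spp1 differed between BP and IgG by -2.92 in microglia-like cells and by 0.75 in tumour-like cells on the log2 scale. Apoe differed by -0.999 in macrophage-like cells and by 0.76 in tumour-like cells. The tumour-like cells of untreated UT had 268 CPM of Apoe, between the BP libraries. Gpnmb differed by -1.68 in macrophage-like cells, by -2.41 in microglia-like cells and by 1.15 in tumour-like cells. Free RNA was estimated at 65.5% and 17.3% of the Spp1 level of tumour-like cells in BP and at 22% and 42.0% in IgG. For Gpnmb there, its share was higher in IgG 1 and BP 1 than in IgG 2 and BP 2, as given above. Those Gpnmb levels were low, from 0.77 to 5.75 CPM over the libraries. Whether the order of the libraries holds without free RNA, and its part in these differences, was not tested.

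Spp1 was also found in T-like cells, a class outside the comparisons: UT had 207 CPM and BP 1 had 104 CPM. BP 2, at 18.8 CPM, was level with IgG 2 (18.5 CPM), and IgG 1 had 0, BPI 7.64 and CD40 27.9 CPM.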

How the results depend on the processing

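Counts of members called, 0 of 8 in every fit as designed, changed with the method and with the BP libraries. With DESeq2 they were 1 for BP and 1 for BPI against IgG in macrophage-like cells, and the microglia-like cells had 2 and 2. With no filter on low counts they were 2 and 2 in macrophage-like cells; the microglia-like cells had 3 and 2, and 1 for BPI against BP. Leaving out 1 replicate at a time gave 0 to 5 for BP and 0 to 2 for BPI against IgG in macrophage-like cells; in microglia-like cells it gave 0 to 5, 0 to 3 and, for BPI against BP, 0 to 3; for CD40 and for tumour-like cells it gave 0. The highest values came without BP 2 (for BPI in macrophage-like cells, 2 without BP 1 and 2 without BP 2), when all genes called for BP against IgG rose from 0 to 1067 (macrophage-like) and 864 (microglia-like). Without BP 1, genes called for BPI against IgG in macrophage-like cells rose from 4 to 680. Spp1 for BPI against BP in macrophage-like cells ranged from -1.39 to 0.33 on leaving out a replicate, and turned to 0.33 without BP 2. For BP against IgG in macrophage-like cells, the values without BP 1 and without BP 2 were 0.95 and -0.82 for Spp1, -0.36 and 0.67 for Fabp5, and 0.20 and -2.07 for Cd9. Of 226 alternative values for 18 log2 differences, 199 kept direction and side of the threshold, 24 passed it and 3 reversed (Spp1, Fabp5 and Cd9, as above). Spp1 in macrophage-like cells, for BP and for BPI against IgG, is counted among the 18 but not read as a test. Spp1 for BPI against BP has no test and is not among the 18. The cause of these changes was not tested. With the replicate block 0 members were called in each fit. All genes called were 52, 68 and 1 for BP, BPI and CD40 in macrophage-like cells, against 18, 21 and 0 in microglia-like cells. Deviations of same-numbered libraries correlated at -0.20, 0.0032 and -0.66 in macrophage-like, microglia-like and tumour-like cells, so a shared number meant no shared deviation. The standard deviation over genes of log2 differences in tumour-like cells was 0.531 for IgG 1 and BP 2. It was 0.417 for CD40 and IgG 2, but 1.201 for the IgG pair and 1.405 for the BP pair. Libraries of 1 set were thus closer there than replicates of a treatment. IgG 1 and BP 2 gave 1.029 in macrophage-like and 1.195 in microglia-like cells, against 1.1 and 0.883 for the IgG pair. The part of this in the fits was not tested. With the pairing crossed, 1 member (Gpnmb) was called for BPI against IgG in macrophage-like cells, and all genes called were 447, 378 and 13 there, 8, 0 and 0 in microglia-like cells, and 14, 123 and 188 in tumour-like cells, with 93 for BPI against BP. Fits of monocyte-like cells were not run, since IgG 2 had 15 such cells.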
